A study of Mus musculus with 4 samples.

Results

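The 10 genes described here encode the signals by which stroma cells keep blood progenitors, the niche factors *Cxcl12*, *Kitl*, *Il7*, *Vcam1*, *Bmp4*, *Igf1*, *Csf1* and *Tgfb1* and the Notch ligands *Dll1* and *Jag1*. The probes were taken as all those that carry one of these gene names, which gave 19 probes of 10 genes among the 39429 probes of the array. RNA was measured on 4 single-dye Agilent arrays, 2 of cells infected with the EMPTY virus, which carries GFP alone, and 2 of cells infected with the *Mir195* virus, which carries GFP and *Mir195*. In both groups the cells came from lineage-negative (Lin-) progenitors of the fetal liver of Ebf1-/- mice. These mice lack the transcription factor EBF1 that B cells need, and no progenitors of wild-type mice were measured. Per the methods, such Lin- cells were infected after isolation and then cultured before analysis, so Lin- describes the cells at isolation. All cultures received SCF, IL-7 and Flt3 ligand at 10 ng/mL each, and the methods give OP9, a stroma cell line from mouse skull, as the layer under such cultures. A sort that would remove the OP9 cells, or keep only GFP+ cells, is not stated for the RNA of the arrays. Nothing in the labels says whether the replicates came from separate animals or cultures, so the p-values measure only the spread between these arrays.

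In the marrow and the fetal liver, stroma cells hold progenitors in place with the chemokine CXCL12 and the adhesion molecule VCAM1. They also feed them with SCF, the product of *Kitl*, and with IL-7, the growth factor of early B cells. Notch ligands on neighbouring cells steer lymphoid progenitors toward T cells, and OP9 cells are used for B cell cultures because they carry little of the ligand DLL1. OP9 cells come from the op/op mouse, in which *Csf1* is mutated, so that they make no functional M-CSF and do not favour macrophages.

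*Mir195* acts through its seed, the bases that pair with a target RNA. Its mature sequence is shown with that of 3 microRNAs of the same seed, with the seed, bases 2 to 8, in capitals (RefSeq, GRCm38.p6). miR-195a-5p lies on the plus strand of chromosome 11 from 70235062 to 70235082.
miR-195a-5p: uAGCAGCAcagaaauauuggc
miR-16-5p: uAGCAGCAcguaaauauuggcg
miR-15a-5p: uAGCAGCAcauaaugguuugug
miR-497a-5p: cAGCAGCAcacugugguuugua
A match to this seed is the 7-base site TGCTGCT, or GCTGCTA where the last seed base is not paired. Neither was found in any of the 19 member probes, which are 60 bases long, against 385 of all 39429 probes, or 0.976%. This says only that these letters are not in the stretches that the probes cover.

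Levels are given on the log2 scale after subtraction of the 75th percentile of each array, so that 0 is the level of a fairly bright probe and each step of 1 is a doubling. They serve to set arrays beside each other for the same probe, and not to rank the genes. Of the 19 probes, 14 probes of 7 genes were tested, because both arrays of at least 1 of the viruses were well above background. *Il7*, *Jag1* and *Vcam1* had no tested probe. Each array had 23658 to 24672 probes above background by this flag and an upper quartile of 902 to 1127 in signal. The blood gene *Ptprc* (CD45) was well above background on all 4 arrays, as was *Ebf1*, whose single probe measured 2.01 and 1.89 with EMPTY and 1.85 and 2.03 with *Mir195*. This signal does not show the loss of *Ebf1* that the labels give, and where the probe lies relative to the disrupted part of the gene is not known here. Whether RNA of OP9 cells adds to it was not tested. Across the tested probes, *Mir195* replicate 2 stood somewhat apart, with correlations of 0.983 to 0.987 with the other arrays, against 0.994 to 0.997 among those. The arrays share 1 slide, on which EMPTY came before *Mir195*, so slide position and virus cannot be told apart.

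The comparison between the viruses asks whether the niche signals in the cultures differed with *Mir195*. No member probe was called. Over the 23732 tested probes limma called 0% at an adjusted p under 0.05, and 8.34% had an unadjusted p under 0.05, against 0 of the 14 member probes. The lowest adjusted p of a member was 0.792 (an *Igf1* probe). The log2 fold changes of the members, *Mir195* over EMPTY, ran from -0.80 to 0.40 with a median of -0.05, and the median of all tested probes was 0.01. The *Mir195* arrays were both higher than both EMPTY arrays for 0 of the 14 member probes and both lower for 1, *Tgfb1*, where 23.4% and 14.4% of all tested probes did so. An exact two-sided permutation test with 2 arrays against 2 cannot give a p under 0.333. The members did differ between arrays of the same virus, and the values of each array are therefore given first.

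**Figure D1:**
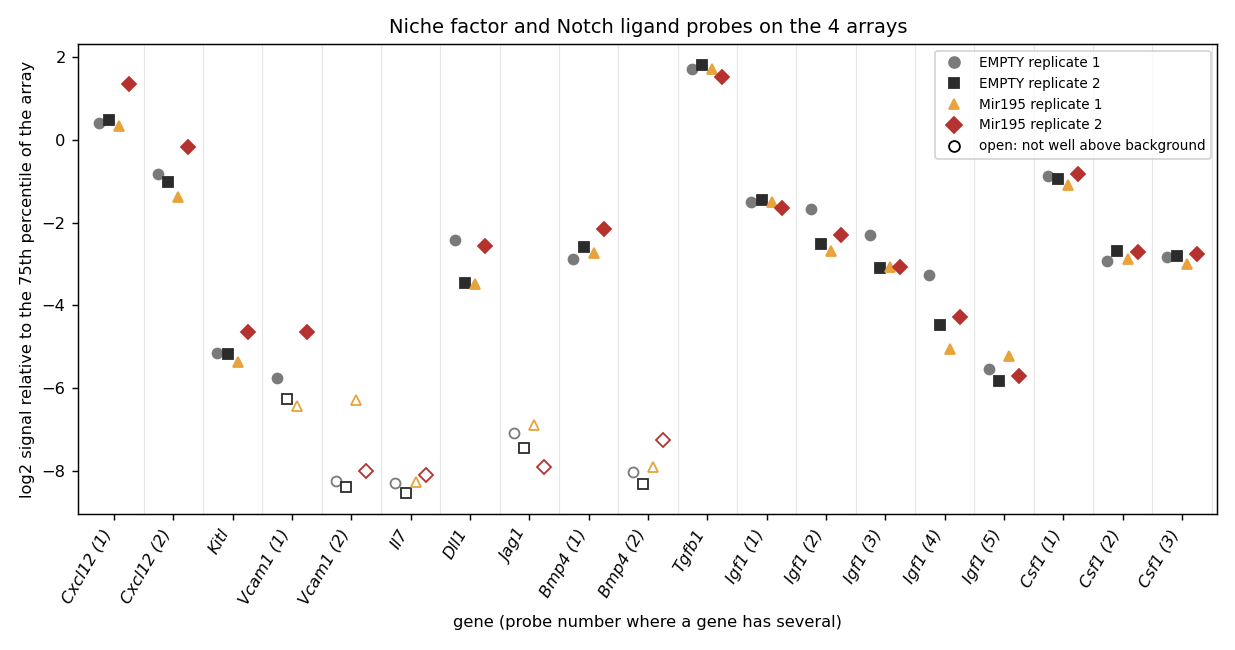
Level (y axis, log2 signal after subtraction of the 75th percentile of the array) for the 19 probes of the 10 genes (x axis; probes of a gene are numbered from the highest EMPTY mean). Each symbol is 1 array, and open symbols are not well above background. *Mir195* replicate 2 is the highest array for both *Cxcl12* probes, *Kitl*, the first *Vcam1* probe, the first *Bmp4* probe and 2 of the 3 *Csf1* probes.

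*Cxcl12*, the chemokine that holds progenitors and B cell precursors near the stroma, was bright on every array. Its brighter probe (NM_001012477) measured 0.40 and 0.48 with EMPTY and 0.34 and 1.35 with *Mir195*. *Mir195* replicate 2 was thus 1.0 above *Mir195* replicate 1 on the log2 scale, while the other 3 arrays lay close together. The second probe (NM_021704), for another transcript, measured -0.83 and -1.01 with EMPTY and -1.37 and -0.17 with *Mir195*, a gap of 1.2 between the *Mir195* arrays. Both probes gave the same order of the *Mir195* arrays. With SE for the standard error, and p-values adjusted by the method of Benjamini and Hochberg, the log2 fold change was 0.40 (SE 0.35, limma adjusted p = 0.865) for the first and 0.15 (SE 0.41, limma adjusted p = 0.961) for the second. Without *Mir195* replicate 2 these values were -0.10 and -0.45, so that the direction rests on that array. Without *Mir195* replicate 1 the first probe was called, with a log2 fold change of 0.91 and an adjusted p of 0.0431 from limma, in a comparison of a single *Mir195* array with the EMPTY arrays.

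*Kitl* encodes SCF, the ligand of KIT, and SCF protein was also added to the medium. Its probe was dim but well above background on all 4 arrays, at -5.16 and -5.17 with EMPTY and at -5.37 and -4.63 with *Mir195*. The EMPTY arrays differed by 0.01, and *Mir195* replicate 2 was 0.74 above *Mir195* replicate 1. The log2 fold change was 0.17 (95% interval -0.53 to 0.86, limma adjusted p = 0.931), and it was -0.21 without *Mir195* replicate 2.

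*Vcam1*, the adhesion molecule that binds the integrin of *Itga4* and *Itgb1* on progenitors, has 2 probes, and neither passed the filter on dim probes. The first measured -5.74 and -6.25 with EMPTY and -6.44 and -4.64 with *Mir195*, and only EMPTY replicate 1 and *Mir195* replicate 2 were well above background. *Mir195* replicate 2 was the highest of the 4 arrays, 1.79 above *Mir195* replicate 1, but the latter value is not well above background and carries no exact level. The second probe did not reach that level on any array, at -8.23 and -8.38 with EMPTY and -6.28 and -7.99 with *Mir195*. *Il7*, the growth factor of B cell precursors, which was added to the medium as protein, had no array well above background, with levels between -8.52 and -8.09. No order can be read among such values.

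Among the Notch ligands, *Dll1* was measured, while *Jag1* had no array well above background, with levels of -7.90 to -6.89. DLL1 is the ligand that drives T cell development when it is added to OP9 cells. Its probe is printed 10 times on the array. Its mean was -2.41 and -3.45 with EMPTY and -3.48 and -2.57 with *Mir195*. EMPTY replicate 1 and *Mir195* replicate 2 were therefore high and the other arrays low, in gaps of 1.04 between the EMPTY arrays and 0.91 between the *Mir195* arrays. The 10 spots of an array had a standard deviation of 0.11 to 0.16. The highest spot of either low array was -3.31, below the lowest spot of either high array, -2.87, so that the gap between arrays of a virus was larger than the error of the spots. The log2 fold change between the viruses was -0.09 (SE 0.46, limma adjusted p = 0.981), and its 95% interval of -1.30 to 1.12 reaches beyond a doubling on either side. It was 0.43 without EMPTY replicate 1 and 0.37 without *Mir195* replicate 1.

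**Figure D2:**
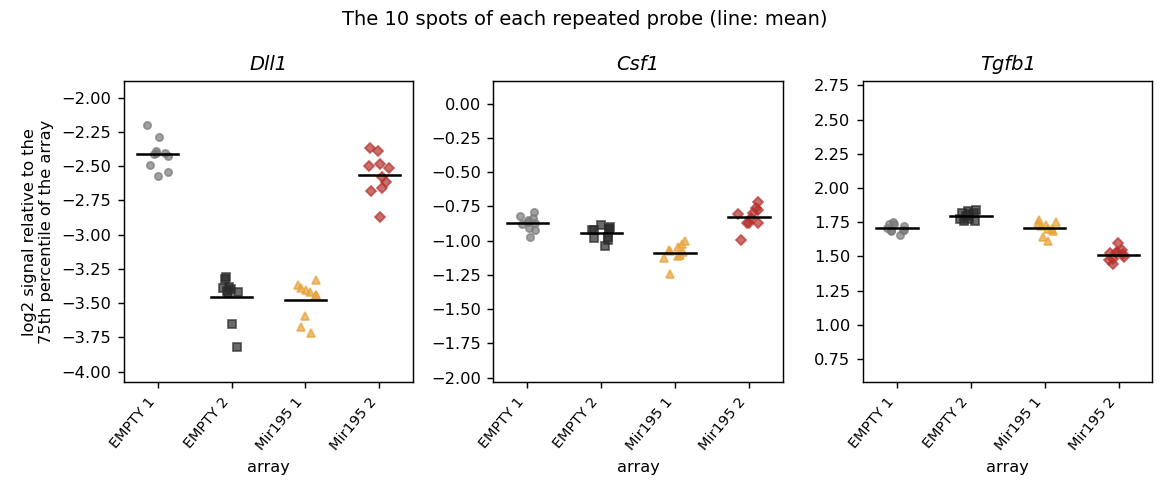
Level (y axis, as in the plot of levels) of the 10 spots of the *Dll1*, *Csf1* and *Tgfb1* probes on each array (x axis), with a line at the mean; the y axes span the same width. The *Dll1* spots of EMPTY replicate 1 and *Mir195* replicate 2 lie above every *Dll1* spot of the other arrays, while the means of *Csf1* span 0.26 and those of *Tgfb1* 0.28.

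*Bmp4* and *Tgfb1* belong to the TGF-beta superfamily, BMP4 as a signal of stroma in early blood formation and TGF-beta1 as a brake on the growth of progenitors that blood cells make as well. One *Bmp4* probe measured -2.88 and -2.60 with EMPTY and -2.73 and -2.15 with *Mir195*, with *Mir195* replicate 2 again highest. Its log2 fold change was 0.30 (95% interval -0.32 to 0.92, limma adjusted p = 0.843), and 0.013 without *Mir195* replicate 2. The other *Bmp4* probe had no array well above background. *Tgfb1*, also printed 10 times, measured 1.71 and 1.80 with EMPTY and 1.71 and 1.51 with *Mir195*. It was the one member whose virus groups did not overlap, by less than 0.01 between EMPTY replicate 1 and *Mir195* replicate 1, and its log2 fold change was -0.14 (SE 0.13, limma adjusted p = 0.876). Here *Mir195* replicate 2 was the lowest array, opposite to *Cxcl12*, *Kitl* and *Bmp4*.

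*Igf1*, a growth factor for progenitors that stroma and macrophages make, has 5 probes, and they disagreed. The brightest, for the transcript NM_184052, was the flattest, at -1.51 and -1.46 with EMPTY and -1.51 and -1.64 with *Mir195*. The other 4 probes are assigned to the transcript NM_010512, and 3 of them were highest on EMPTY replicate 1. They measured -1.67, -2.30 and -3.25 on EMPTY replicate 1 and -2.52, -3.10 and -4.48 on EMPTY replicate 2, so that EMPTY replicate 1 was higher by 0.79 to 1.23. On *Mir195* replicate 1 and 2 they measured -2.69 and -2.31, -3.06 and -3.08, and -5.05 and -4.28. The first and the second of these probes share 40 bases and are not independent measurements. The fifth probe was dim, at -5.54 and -5.82 with EMPTY and -5.21 and -5.71 with *Mir195*. The log2 fold changes of the 5 probes ran from -0.80 (SE 0.49, limma adjusted p = 0.792) to 0.22, and that of the brightest was -0.09. The value of -0.80 was -0.18 without EMPTY replicate 1, -1.41 without EMPTY replicate 2, -0.41 without *Mir195* replicate 1 and -0.19 with the normexp background correction. Without EMPTY replicate 1, the values of the 2 probes that share bases were 0.021 and 0.026.

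*Csf1* encodes M-CSF, the growth factor of macrophages, and its 3 probes differed little between arrays. The probe that is printed 10 times measured -0.87 and -0.94 with EMPTY and -1.09 and -0.83 with *Mir195*, with a standard deviation between spots of 0.05 to 0.08. The other 2 probes share 31 bases and lay between -2.99 and -2.69 on the 4 arrays. The 3 log2 fold changes were -0.05, -0.05 and 0.02, and the 95% interval of the first was -0.43 to 0.32. A probe of *Csf1* cannot tell the RNA of OP9 cells from that of blood cells.

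**Figure D3:**
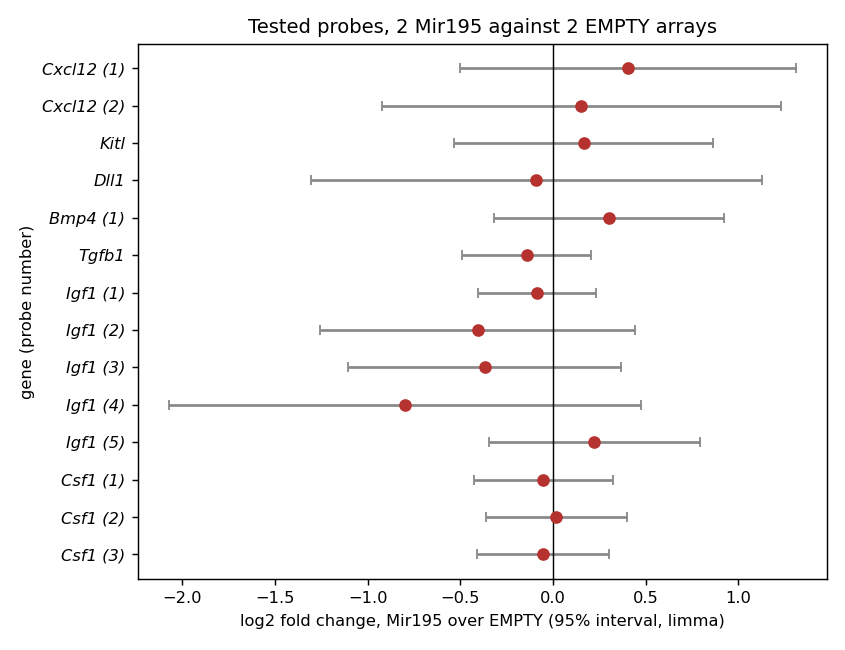
Log2 fold change of the *Mir195* arrays over the EMPTY arrays (x axis) for the 14 tested probes of 7 genes (y axis, numbered as in the plot of levels), with 95% intervals from limma. The interval of every tested member probe contains 0.

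The log2 table of the authors gave the same picture for the brighter members. There, the first *Cxcl12* probe measured 0.39 and 0.46 with EMPTY and 0.38 and 1.32 with *Mir195*, and *Dll1* -2.43 and -3.47 with EMPTY and -3.49 and -2.62 with *Mir195*. Dim probes moved more, and the first *Vcam1* probe measured -6.59 and -5.82 with EMPTY and -6.32 and -4.70 with *Mir195*, with *Mir195* replicate 2 highest in both versions and the EMPTY arrays in the opposite order.

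Differences between arrays of the same virus were described for all members together. By the brightest probe of each of the 7 tested genes, *Mir195* replicate 2 was the highest array for *Cxcl12*, *Kitl*, *Bmp4* and *Csf1*. EMPTY replicate 1 was highest for *Dll1*, and EMPTY replicate 2 for *Igf1* and *Tgfb1*. By probe, *Mir195* replicate 2 was highest for 6 of the 14 member probes, against 34.3% of all tested probes, and EMPTY replicate 1 for 4, against 17.7%. These 4 were the *Dll1* probe and probes of *Igf1*, and probes of the same gene are not independent measurements. EMPTY replicate 1 and *Mir195* replicate 2 were both above the other arrays for 6 of the 14, against 16.0%. These 6 were the second *Cxcl12* probe, *Kitl*, *Dll1*, a *Csf1* probe and 2 *Igf1* probes. The first *Cxcl12* probe rose from *Mir195* replicate 1 to *Mir195* replicate 2, and 1.77% of all tested probes rose as much or more. For the second *Cxcl12* probe this share was 0.898%. For *Kitl* this share was 4.36%, for *Dll1* 2.44% and for *Bmp4* 7.69%. A step between the EMPTY arrays as large as that of *Dll1*, in the same direction, was reached by 0.670%. Steps of equal size in the opposite direction are not counted in any of these shares.

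**Figure D4:**
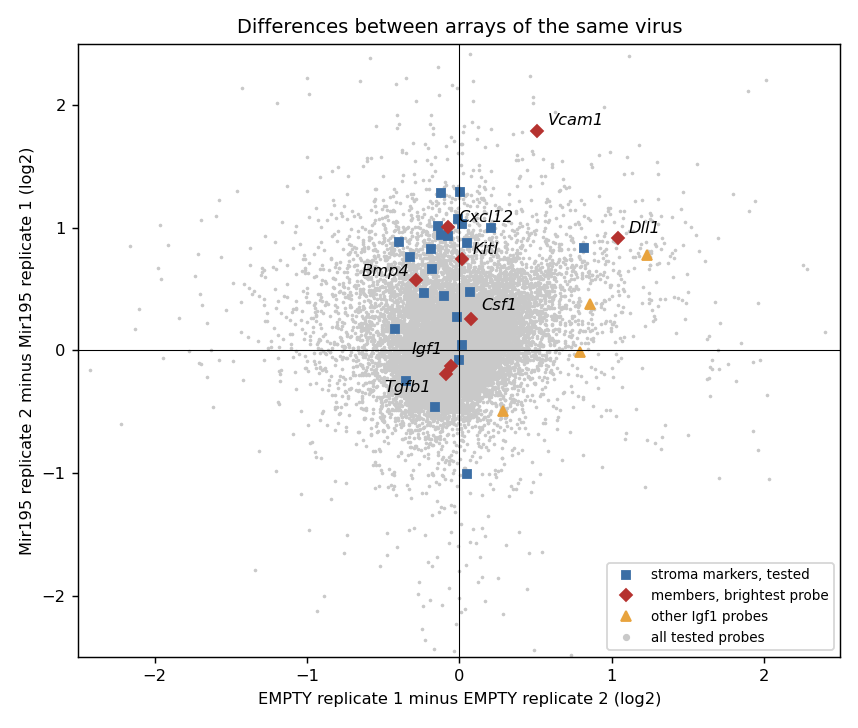
Difference between the EMPTY arrays (x axis, replicate 1 minus replicate 2) and between the *Mir195* arrays (y axis, replicate 2 minus replicate 1), in log2 units, for all tested probes (grey), the tested stroma markers and the members, with *Vcam1* added although it was not tested; 95 probes lie beyond the axes. *Cxcl12*, *Kitl* and *Bmp4* lie high near the vertical axis among the stroma markers, *Dll1* lies high on both axes, and *Tgfb1* and the brightest *Igf1* probe lie near 0.

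A list of 34 markers of stroma was set beside the members. It holds genes of the matrix, of contractile and mesenchymal cells and of the adipocytes that OP9 cells readily form. Of these, 24 were tested and 10 stayed below that flag on all 4 arrays, among them *Pdgfra*, *Prrx1*, *Twist1*, *Postn*, *Dcn* and *Lum*, which many fibroblasts express. The collagens *Col1a1* and *Col1a2*, *Fn1* (fibronectin) and *Sparc* were well above background on all 4 arrays. Which cells these transcripts came from was not tested. Fewer stroma cells and less RNA per stroma cell cannot be told apart in these cultures.

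*Mir195* replicate 2 was the highest array for 19 of the 24 tested stroma markers, against 34.3% of all tested probes. The median step from *Mir195* replicate 1 to *Mir195* replicate 2 was 0.79 on the log2 scale, against -0.02 for all tested probes, while EMPTY replicate 1 minus EMPTY replicate 2 had a median of -0.09. *Fn1* measured 1.30 and 1.29 with EMPTY and 1.11 and 2.15 with *Mir195*. *Sparc*, a matrix protein, measured 2.51 and 2.63 with EMPTY and 2.47 and 3.41 with *Mir195*. Both have the shape of *Cxcl12*, with the other 3 arrays close together. *Mir195* replicate 1 lay above both EMPTY arrays for 2 of the 19 markers that are not adipocyte genes, whereas *Mir195* replicate 2 was highest for 17 of them. Of the 5 tested adipocyte genes it was highest for *Lpl* and *Pparg*, and for *Adipoq*, *Fabp4* and *Cfd* it was the lowest, with *Cfd* not well above background on that array.

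The signals of the 34 stroma markers were summed on each array, without knowledge of the cells they came from. The sum made up 0.00734% and 0.00717% of the signal of all probes with EMPTY and 0.00626% and 0.0120% with *Mir195*. The sum of the 10 members, with 1 probe each, was 0.00300%, 0.00282%, 0.00259% and 0.00352% in the same order. These are shares of signal and not of transcripts or cells. *Sparc* and *Fn1* alone gave 39.8% and 17.2% of the stroma sum on EMPTY replicate 1. On *Mir195* replicate 2 they gave 46.1% and 19.2%. Between the viruses, the stroma list had a median log2 fold change of 0.17, with 17 genes higher and 7 lower and 0 called (lowest limma adjusted p = 0.530). Without *Mir195* replicate 2 the median was -0.19, with 5 higher and 19 lower. *Fap* (0.59), *Loxl1* (0.44) and *Fbn1* (0.39) had the largest values.

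**Figure D5:**
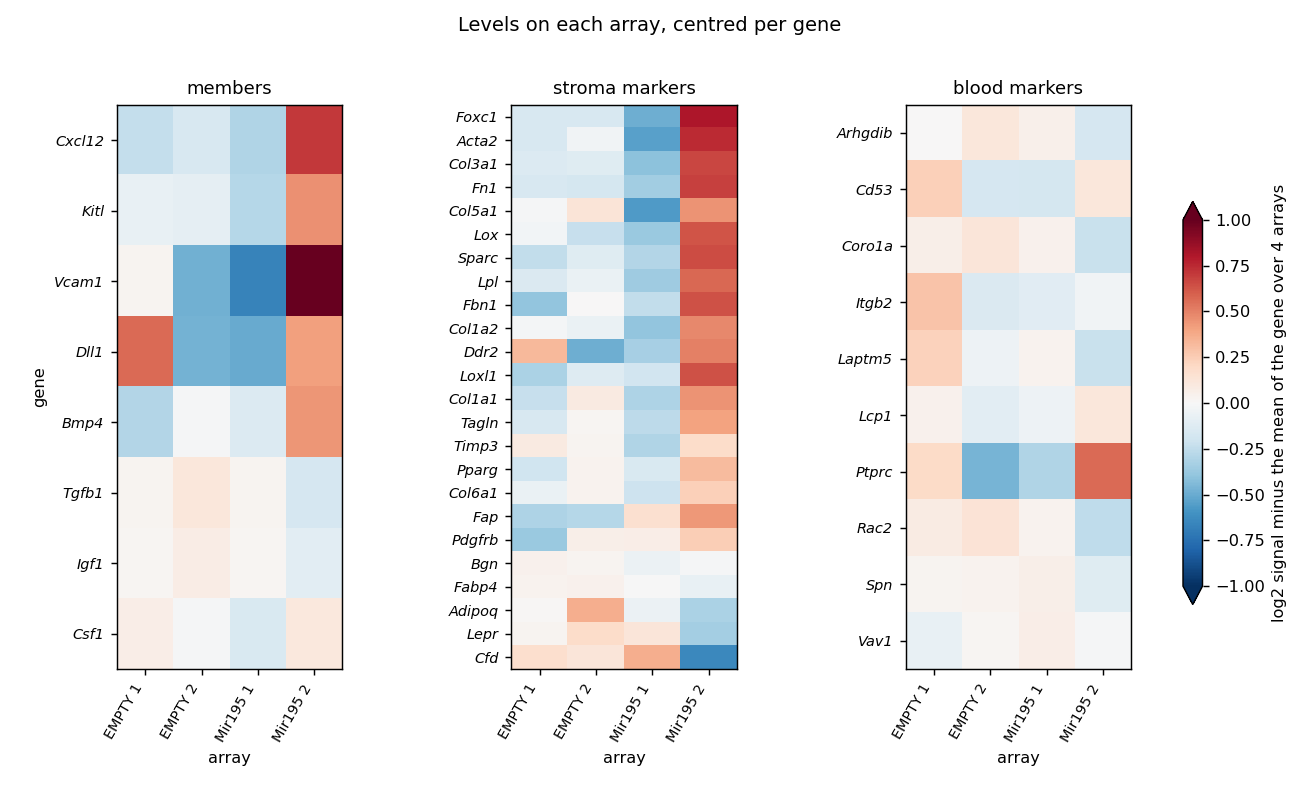
Log2 signal of each gene minus its mean over the 4 arrays (colour, ending at 1 in either direction) for the members with at least 2 arrays well above background, the 24 tested stroma markers and the 10 blood markers (rows), on each array (columns). The column of *Mir195* replicate 2 is red for *Cxcl12*, *Kitl*, *Vcam1*, *Bmp4*, *Dll1* and most stroma markers, and weakly for *Csf1*. Among the blood markers it is red for *Ptprc* and weakly for *Lcp1* and *Cd53*.

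Blood markers gave no such step. The 10 were all tested, and they had a median step between the *Mir195* arrays of -0.13 and a median log2 fold change between the viruses of -0.09. *Mir195* replicate 2 was the highest array for 2 of them, *Ptprc* and *Lcp1*. *Ptprc* was also high on EMPTY replicate 1, at 2.21 and 1.56 with EMPTY and 1.72 and 2.59 with *Mir195*, the order that *Dll1* had. Of 7 endothelial markers 2 were tested, *Kdr* and *Cdh5*, with log2 fold changes of -0.10 and 0.06. Of 10 macrophage markers 8 were tested, and 7 of them were highest on *Mir195* replicate 2, against 34.3% of all tested probes. The mean was higher with *Mir195* for 7 of the 8, with a median log2 fold change of 0.42. *C1qc* was 0.85 higher with *Mir195* (SE 0.28, limma adjusted p = 0.554), *Mrc1* 0.71 and *Cd14* 0.44, while *Cd68* differed by 0.07. *Adgre1* went the other way, at 1.28 and 0.87 with EMPTY and 0.83 and 0.90 with *Mir195* (log2 fold change -0.21). *C1qa* measured -5.72 and -5.52 with *Mir195* and was not well above background on either EMPTY array. Its difference between the viruses therefore carries no exact size, and it was not called (limma adjusted p = 0.530). Macrophages make *Igf1* and *Tgfb1*, as other cells do. The part of macrophages in the values of the members was not tested. Of 7 megakaryocyte markers 5 were tested, with 4 higher, 1 lower and 0 called. *Gp9* had a log2 fold change of 0.33 and *Pf4* of 0.31. The lower one, *Itga2b*, measured -5.39 and -5.15 with EMPTY and -5.95 and -8.03 with *Mir195* and was not well above background on *Mir195* replicate 2 (log2 fold change -1.72, SE 0.69, limma adjusted p = 0.623); it was named after its values were seen. The 8 control genes had a median of 0.02, and *Ppia* (0.11), *Ywhaz* (0.10) and *Actb* (0.08) had the largest values.

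The probes most like *Cxcl12* over the 4 arrays, by the Euclidean distance between levels centred on their mean, were *Tm4sf1*, *Sparc*, *B930078G14Rik*, *Fbln5* and *Gm6750*, at distances of 0.03 to 0.10. *Tm4sf1* measured -3.96 and -3.92 with EMPTY and -4.06 and -3.06 with *Mir195*. Some of these probes were dim, and *B930078G14Rik* measured -6.02 and -5.96 with EMPTY and -5.99 and -5.08 with *Mir195*. The lowest levels well above background were -6.51 to -6.13 on the 4 arrays, so the shape of such probes is uncertain. Of the nearest 100 probes, 6 were of stroma markers, and 28 of all 23732 tested probes are. For the mean profile of *Cxcl12*, *Kitl* and *Vcam1* the nearest were *C130009A20Rik*, *LOC100048720*, *9230112J17Rik*, *Insrr* and *Gm10487*, and 7 of the nearest 100 were of stroma markers. This profile includes the *Vcam1* values of EMPTY replicate 2 and *Mir195* replicate 1, which were not well above background, so that its distances are uncertain. *LOC100048720* was itself at -6.38 on *Mir195* replicate 1, where the lowest level well above background was -6.23. For *Dll1* the nearest was *Maf*, a transcription factor, at -1.06 and -2.09 with EMPTY and -2.11 and -1.18 with *Mir195*, and 1 of the nearest 100 was of a stroma marker. *Dll1* was added to this search after its values were seen. Such likeness is a description over 4 arrays.

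Genes of the receptors of these signals were also set beside the members, and which cells their RNA came from was not tested. Of 21 receptor genes 18 were tested, with 10 higher and 8 lower, 0 called and a median log2 fold change of 0.03. EMPTY replicate 1 and *Mir195* replicate 2 were both above the other arrays for 8 of the 18, against 16.0% of all tested probes. *Cxcr4*, the receptor of CXCL12, measured 0.14 and 0.17 with EMPTY and 0.14 and 0.01 with *Mir195*, without the step that its ligand had. *Ackr3*, the scavenger receptor of CXCL12, was well above background only on EMPTY replicate 1 (-4.30) and *Mir195* replicate 2 (-4.74), the arrays on which *Dll1* was high. *Kit* measured 1.49 and 1.50 with EMPTY and 1.66 and 1.87 with *Mir195*, and its log2 fold change was 0.27 (SE 0.13, limma adjusted p = 0.697). *Il7r* lay between 3.23 and 3.51, *Il2rg* between 2.52 and 2.89 and *Csf1r* between 1.48 and 1.72. *Itga4*, a subunit of the VCAM1 receptor, differed by -0.01, *Itgb1* by 0.04 and *Itgb7* by -0.12.

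Of the Notch receptors, *Notch1* was higher on both *Mir195* arrays, at -2.47 and -2.28 with EMPTY and -1.98 and -2.09 with *Mir195* (log2 fold change 0.34, SE 0.13, limma adjusted p = 0.609). *Notch2*, *Notch3* and *Notch4* had log2 fold changes of 0.07, 0.07 and 0.05. *Tgfbr1*, *Tgfbr2* and *Tgfbr3* had 0.01, -0.06 and -0.16. The BMP receptors *Bmpr2* and *Acvr1* had -0.16 and 0.13, while *Bmpr1a* and *Bmpr1b* were not well above background. *Igf1r* was highest on EMPTY replicate 1, at -2.26, as 3 probes of its ligand were, and measured -3.09 on EMPTY replicate 2 and -2.92 and -2.76 with *Mir195*.

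Other ligands of the same families gave 17 tested genes of 25, with 6 higher, 11 lower, 0 called and a median of -0.11. *Igf2*, the fetal relative of IGF1, was lower on both *Mir195* arrays, at -2.01 and -2.15 with EMPTY and -3.25 and -4.93 with *Mir195* (log2 fold change -2.01, SE 0.56, limma adjusted p = 0.530). *Bmp7* was higher on both, at -1.34 and -1.74 with EMPTY and -0.60 and -0.37 with *Mir195* (1.05, SE 0.19, limma adjusted p = 0.530). *Dlk1*, a protein of the Delta family that stroma and fetal progenitors carry, measured 0.96 and 1.89 with EMPTY and 1.64 and -0.49 with *Mir195*, so that *Mir195* replicate 2 was the lowest array. EMPTY replicate 1 and *Mir195* replicate 2 were above the other arrays, as for *Dll1*, for 8 of the 17. Of all tested probes 16.0% had this order, which was taken from the values of *Dll1* in these data. The 8 were the cytokines *Csf2*, *Lif*, *Il6* and *Il15*, the growth factors *Bmp2* and *Tgfb3*, the matrix cytokine *Spp1* and the adhesion molecule *Icam1*. *Il6*, for example, measured -4.19 and -5.38 with EMPTY and -5.88 and -4.78 with *Mir195*. None of the 8 was called. *Dll4* was not well above background, and *Jag2* and *Dll3* had log2 fold changes of -0.22 and -0.11.

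Genes that act on these ligands outside the cell, or process them, gave 15 tested of 21, with 5 higher and 10 lower, 0 called and a median of -0.04. *Dpp4*, a protease that cuts CXCL12, had the largest value, -0.61 (SE 0.23, limma adjusted p = 0.595), and was lower on both *Mir195* arrays. *Fst*, an inhibitor of activin and BMP, had 0.48, and *Neurl1a*, a ubiquitin ligase of Notch ligands, -0.42. Target genes of the pathways gave 9 tested of 12, with 5 higher and 4 lower, 0 called and a median of 0.29. *Hes1*, a target of Notch, measured -5.20 and -4.82 with EMPTY and -4.92 and -3.53 with *Mir195*, with *Mir195* replicate 2 highest. *Ccn2*, a target of TGF-beta that fibroblasts express strongly, was also highest on that array, at -5.03 and -4.62 with EMPTY and -5.10 and -3.28 with *Mir195*. *Id1*, a target of BMP, was higher on both *Mir195* arrays (log2 fold change 0.63, SE 0.23, limma adjusted p = 0.578).

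By their brightest probes, *Cxcl12*, *Kitl*, *Bmp4* and *Csf1* were highest on the same array. The 250 bases before the start sites of all of these but *Csf1* are shown (RefSeq, GRCm38.p6, on the strand of the gene). Capitals mark matches on either strand to TATAAA (the TATA box), GGGCGG (the GC box) and CCCNNGGG, the core of the site that EBF proteins bind. No base of these sequences lies in matches to more than 1 of the motifs. The window of *Cxcl12* is chr6:117168285-117168534 on the plus strand, that of *Kitl* chr10:100015571-100015820 on the plus strand, and that of *Bmp4* chr14:46390670-46390919 on the minus strand.
Cxcl12: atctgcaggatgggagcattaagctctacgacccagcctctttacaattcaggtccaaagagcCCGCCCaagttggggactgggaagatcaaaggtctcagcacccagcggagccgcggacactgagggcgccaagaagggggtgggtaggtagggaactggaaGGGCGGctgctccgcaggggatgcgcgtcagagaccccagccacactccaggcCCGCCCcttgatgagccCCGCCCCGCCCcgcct
Kitl: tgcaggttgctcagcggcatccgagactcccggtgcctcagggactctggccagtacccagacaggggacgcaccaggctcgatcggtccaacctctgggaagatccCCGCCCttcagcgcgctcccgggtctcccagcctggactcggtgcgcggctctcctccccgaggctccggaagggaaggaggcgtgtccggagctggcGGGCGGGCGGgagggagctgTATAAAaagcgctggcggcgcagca
Bmp4: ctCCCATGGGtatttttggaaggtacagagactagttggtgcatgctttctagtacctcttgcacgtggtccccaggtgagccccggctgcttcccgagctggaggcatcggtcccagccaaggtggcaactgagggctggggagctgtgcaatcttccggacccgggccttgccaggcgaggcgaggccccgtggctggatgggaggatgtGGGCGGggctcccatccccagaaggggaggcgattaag
The GC box occurs 5 times before *Cxcl12*, 3 times before *Kitl*, 1 time before *Bmp4* and 2 times before *Csf1*. Of all 32851 promoters in the table, 32.7% hold it in the same window. *Kitl* holds a TATA box, as do 12.4% of all promoters. *Bmp4* holds the EBF core, as do *Csf1* and *Tgfb1* and 11.8% of all promoters, and *Cxcl12* and *Kitl* do not. Of the 10 members 8 have an entry, *Dll1* with 2 windows, and those of *Dll1*, *Igf1* and *Jag1* hold none of the 3 motifs. *Il7* and *Vcam1* have no entry in the table. A match is a description of the letters, and nothing about the binding of a factor follows from it.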

How the data were processed

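The authors deposited, for each spot of the 4 arrays, the intensity after subtraction of local background and a spatial trend, with flags. Per the labels it came from Agilent Feature Extraction 11.5.1.1, whereas the file headers name version 9.1.3.1. A second deposited table holds log2 values that the authors had scaled to the 75th percentile, which correlated with the levels used here at r of 0.999 or above on each array. Of 43020 non-control spots per array, 21 to 65 flagged as outliers were left out and none was saturated. Spots of a probe were averaged as log2 intensity, and the 75th percentile over 39429 probes was subtracted. Probes were tested if both arrays of 1 or both viruses were well above background (23802) and no value was lost to outliers (23732). The test was that of limma 3.58.1 (lmFit, eBayes; R 4.3.3; two-sided, Benjamini-Hochberg, threshold 0.05, EMPTY and *Mir195* as labelled). Symbols of 26055 probes came from RefSeq (GRCm38.p6) by accession, those of the members from the array. The number of arrays limits the precision. The members, gene lists and alternatives were chosen with earlier results of these data known. The text names each member, the receptors, in every other list the 3 genes with the largest fold change among those well above background on all 4 arrays, with the brightest probe for a gene, and the 5 nearest patterns; 1 result under this rule is not reported here, and others are named as examples chosen after their values were seen. The alternatives were the normexp correction (offset 50), quantile and median scaling, another percentile, the authors' table, other filters, eBayes with trend, the replicate block, each array left out, the methods' t-test, and averaging the tested probes of a gene.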

Additional observations from a re-analysis of the deposited data

How the results depend on the processing

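The count over all probes was 0 at an adjusted p under 0.05, with 1980 at an unadjusted p under 0.05, and stayed at 0 except under these alternatives. Median scaling gave 3 calls and the replicate block 5. Leaving out single arrays gave 0 to 904, with 3 without *Mir195* replicate 2 and 904 without *Mir195* replicate 1, where the spread comes from the EMPTY arrays alone and the lone *Mir195* array is assumed to vary like them. The methods' t-test gave 1134 probes before and 0 after adjustment. For the member probes the count was 0 to 1 with arrays left out, the 1 being *Cxcl12* (0.91 without *Mir195* replicate 1), and 0 under every other alternative run. Their median ran from -0.18 to 0.07 with arrays left out, and that of the stroma list from -0.19 to 0.52.

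Same-numbered arrays deviated with a correlation of -0.10 across probes. The labels do not say whether same-numbered arrays belong together, and this correlation cannot decide it. The numbers are used here only to name the arrays. Pairing replicate 1 of one virus with replicate 2 of the other as a block, added after seeing the data, gave 0 calls. Directions that turned were small or rested on 1 array. With single arrays left out, the *Cxcl12* probes ran from -0.098 to 0.91 and from -0.45 to 0.75, and *Kitl* from -0.21 to 0.54, each lowest without *Mir195* replicate 2 and highest without *Mir195* replicate 1. *Dll1* ran from -0.61 to 0.43, lowest without EMPTY replicate 2 and highest without EMPTY replicate 1. *Igf1* probes ran from -0.83 to 0.021, from -0.76 to 0.026 and from -0.024 to 0.47, and *Csf1* probes from -0.18 to 0.077, from -0.17 to 0.062 and from -0.097 to 0.13. With normexp *Dll1* gave 0.030 and a *Csf1* probe 0.036. In the authors' table *Kitl* gave -0.092, an *Igf1* probe -0.080 and a *Csf1* probe 0.0054. Quantile and median scaling gave -0.050 and -0.080 for a *Csf1* probe. The cause of these turns was not tested. Dim signals limit *Il7*, *Jag1*, *Vcam1* and the second *Bmp4* probe, which were not well above background on 2 or more arrays.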
